A study of Mus musculus with 12 samples.

Results

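The mitochondrial chromosome of the mouse carries 13 protein genes, 22 transfer RNA (tRNA) genes and a pair of ribosomal RNA genes. The genes described here were all those that the count files place on chromosome MT. They came to 35 of the 49315 genes in the files, namely the 13 protein genes and the 22 tRNA genes, and the pair of ribosomal RNAs was not analysed here. The study sequenced RNA from hearts of wild-type C57BL/6 female mice in a design of 2 diets by 2 reproductive states, with 3 libraries in each of 4 groups. Western diet postpartum mice ate a feed with 45% of its energy from fat and 17% from sucrose for 15 weeks, were then bred, and were killed on day 1 after delivery. Control diet postpartum mice ate a feed with 10% of its energy from fat and were bred and killed on the same schedule. Western diet nonpregnant mice and control diet nonpregnant mice stayed on their feeds without breeding, and all 4 groups were 27 to 29 weeks old at the end. The labels describe the Western feed as a model of early metabolic syndrome and do not say whether each library came from a separate animal, so the p-values measure the spread between these libraries. Libraries are named by group and by a number given in accession order.

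Both strands of the mitochondrial chromosome are transcribed into long precursor RNAs, in which tRNAs punctuate the messages and are cut out to release them. The 13 proteins are core subunits of the respiratory chain and of ATP synthase, which they form together with subunits encoded in the nucleus, and the tRNAs serve only translation inside the organelle. Heart muscle is rich in mitochondria and is known for a high share of mitochondrial messages in its RNA. Of the 35 genes, 26 lie on the plus strand and 9 on the minus strand. The minus strand holds mt-Nd6, a subunit of complex I, and 8 tRNAs. The library kit does not mark strand, so reads from a gene and from RNA of the opposite strand over it cannot be told apart, and mt-Nd6 shares its last 14 bases with mt-Nd5 on the plus strand. The tRNA genes are 59 to 75 bases long, and counts on them do not separate mature tRNA from longer RNA that spans the gene.

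Of the tRNA genes, 4 passed the test in at least 1 comparison below, and their sequences are shown 5′ to 3′ with the anticodon in capitals, from GENCODE M21 transcripts on the GRCm38 build. The tRNA for glutamate, mt-Te, is on the minus strand at chrM:14071-14139, directly beside mt-Nd6. The tRNA for valine, mt-Tv, is on the plus strand at chrM:1025-1093. The tRNA for serine that reads AGY codons, mt-Ts2, is on the plus strand at chrM:11613-11671, and the tRNA for leucine that reads CUN codons, mt-Tl2, follows it on the plus strand at chrM:11671-11741.
mt-Te: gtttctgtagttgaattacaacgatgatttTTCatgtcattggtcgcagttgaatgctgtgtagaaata
mt-Tv: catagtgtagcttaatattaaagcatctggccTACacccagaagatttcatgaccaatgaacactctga
mt-Ts2: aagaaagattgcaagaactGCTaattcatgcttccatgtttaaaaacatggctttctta
mt-Tl2: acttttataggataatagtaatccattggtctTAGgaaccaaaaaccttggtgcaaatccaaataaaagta

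A stretch of the mitochondrial chromosome has a copy in the nucleus, nearly identical over the bases compared, and the protein genes inside the stretch stood far below the other protein genes. The copy lies on chromosome 1 at chr1:24611535-24616197 on the minus strand, holds 7 annotated unprocessed pseudogenes, and corresponds to chrM:6390-11042. Over 4140 aligned bases of the 7 pseudogenes there were 2 differences. One was T3C between mt-Nd3 and its copy Gm28438 and the other A1066T between mt-Co1 and Gm29216, with positions counted from the first base of the mitochondrial gene. The first 60 bases of mt-Nd3 (chrM:9459-9518, plus strand) and of Gm28438 (chr1:24613060-24613119, minus strand) show how alike they are, with the differing base in capitals.
mt-Nd3: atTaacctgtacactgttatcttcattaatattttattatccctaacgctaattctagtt
Gm28438: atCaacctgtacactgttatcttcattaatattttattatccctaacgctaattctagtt
Wholly inside the stretch were 6 protein genes (mt-Co2, mt-Atp8, mt-Atp6, mt-Co3, mt-Nd3 and mt-Nd4l) and 5 tRNAs (mt-Ts1, mt-Td, mt-Tk, mt-Tg and mt-Tr). The last 483 bases of mt-Co1 and the first 876 bases of mt-Nd4 also fell in it. The bases between the pseudogenes, which hold nearly all of the 5 tRNAs and most of mt-Atp8, were not compared. The 11 genes wholly inside held 0.0675% to 0.0968% of all mitochondrial counts in a library. The other 7 protein genes, mt-Co1 and mt-Nd4 among them and called outside the stretch below, held 98.9% to 99.2%. How the counting treated reads that match both places is not given in the sources used here, and its part in these levels was not tested.

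Levels are given as CPM, a gene's counts scaled to a common library total, with each total adjusted by the TMM method. For the 7 protein genes not wholly inside the copied stretch, levels were ordered per kilobase of gene, over 12 libraries. The catalytic subunit of complex IV, mt-Co1, stood at 54890 ± 2909 CPM per kilobase (SD, n = 12). The cytochrome b of complex III, mt-Cytb, followed at 31665 ± 2151 CPM per kilobase, ahead of mt-Nd1, a membrane subunit of complex I, at 28537 ± 1666. Another membrane subunit of complex I, mt-Nd2, had 16770 ± 1510 CPM per kilobase. In all 12 libraries mt-Co1 was above mt-Cytb, mt-Cytb above mt-Nd1, mt-Nd1 above mt-Nd2, and mt-Nd2 above mt-Nd6. The levels of mt-Nd6 (10936 ± 1309), mt-Nd4 (9995 ± 847) and mt-Nd5 (9134 ± 737 CPM per kilobase), all subunits of complex I, lay within their spread of each other. Here mt-Nd6 was above mt-Nd4 in 10 libraries and mt-Nd4 above mt-Nd5 in 11. Counted over only the bases outside the copied stretch, an alternative added after seeing the data, mt-Co1 stood at 79854 ± 4231 and mt-Nd4 at 27438 ± 2325 CPM per kilobase. On that scale mt-Nd4 was above mt-Nd2, mt-Nd6 and mt-Nd5, so its place in the order depends on the length used.

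Inside the copied stretch, mt-Nd3, a complex I subunit, had 258 ± 42.0 CPM per kilobase (SD, n = 12) and mt-Nd4l, another, had 48.2 ± 6.75. The complex IV subunits mt-Co3 and mt-Co2 had 21.7 ± 1.87 and 17.4 ± 2.20 CPM per kilobase. The ATP synthase subunits mt-Atp8 and mt-Atp6 had 19.9 ± 2.13 and 19.9 ± 1.30, and mt-Atp8 was above mt-Atp6 in 5 of 12 libraries. Raw counts of mt-Co2 ran between 253 and 361 per library, while those of its copy Gm28661, identical over 681 bases, ran between 237 and 312. The tRNAs mt-Td (aspartate) and mt-Tk (lysine) had 0 counts in every library. By counting error only, that allows up to 3 counts, or 0.102 to 0.132 CPM of unscaled totals depending on the library. That bound takes no account of how reads matching both places were treated, so it does not limit the RNA level. Between the protein genes outside and inside the stretch, no level of the one set overlapped any level of the other.

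**Figure D1:**
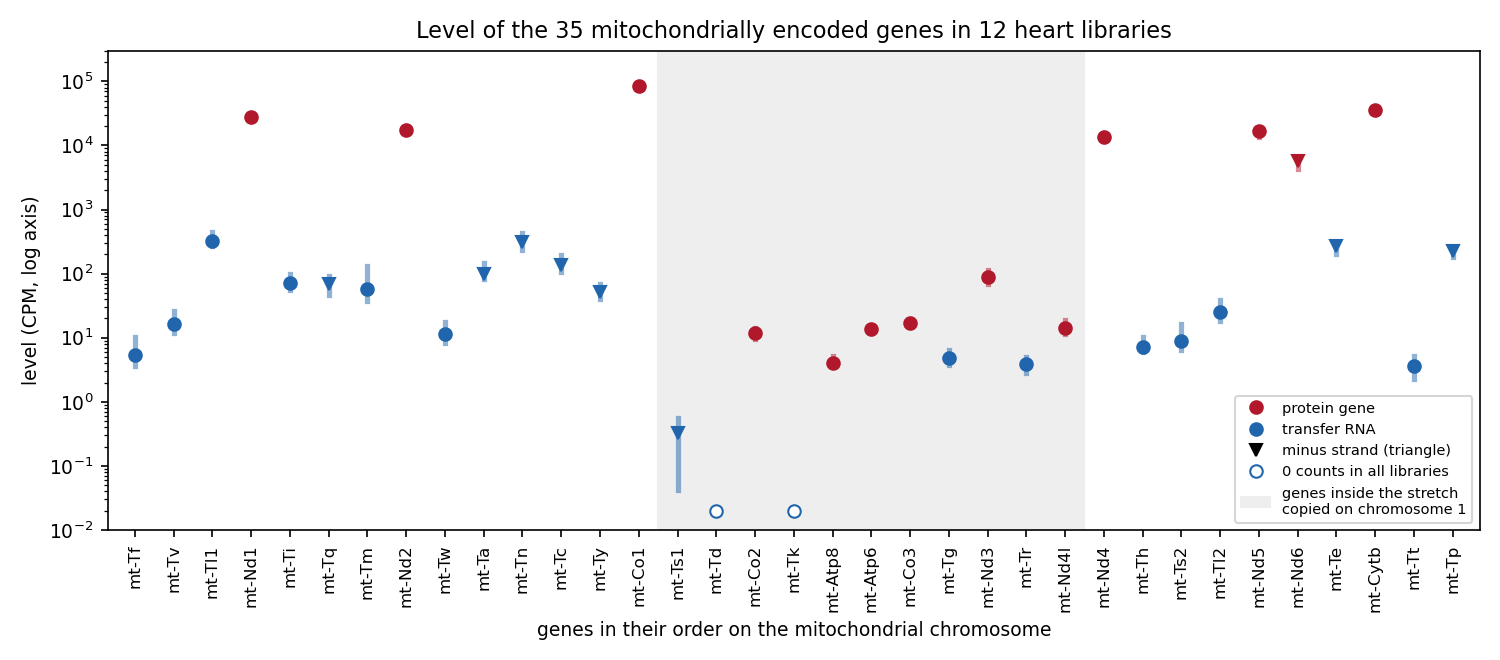
Mean level (CPM, log axis) of the 35 mitochondrially encoded genes in their order on the chromosome, with lines from the lowest to the highest of 12 libraries. The 7 protein genes outside the shaded stretch are at 4355 CPM or more in every library, the 6 inside it at 114 CPM or less, and mt-Td and mt-Tk have 0 counts.

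In CPM not divided by gene length, the short tRNA genes were lower than the 7 messages outside the copied stretch. On that scale mt-Tl1, mt-Tn, mt-Te and mt-Tp were above the 6 messages inside the stretch. Together the tRNAs took 0.699% to 0.974% of the mitochondrial counts of a library, and the 8 on the minus strand took 63.2% to 70.9% of the tRNA counts. The highest were mt-Tl1 (leucine, UUR codons) and mt-Tn (asparagine), with group means of 281 to 383 CPM and 258 to 370 CPM. Then came mt-Te, with group means of 210 to 303 CPM, and mt-Tp (proline), with 205 to 245 CPM. The spread between libraries of a group, as the pooled coefficient of variation, was 3.18% to 5.40% for the 7 protein genes outside the copied stretch. It was 4.45% for mt-Te and 5.68% for mt-Tp, and between 12.4% (mt-Th) and 43.9% (mt-Tm) for the other 18 tRNAs with counts.

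The 13 protein genes held a larger share of the counts in Western diet hearts than in control diet hearts of the same reproductive state. In Western diet postpartum hearts the protein genes held 21.2%, 21.4% and 20.3% of all counts, against 19.0%, 19.3% and 19.0% in control diet postpartum hearts. In Western diet nonpregnant hearts they held 21.04%, 20.29% and 20.97%, against 19.6%, 20.0% and 20.1% in control diet nonpregnant hearts. Within each state the diets did not overlap, and control diet postpartum hearts were the lowest of the 4 groups. In bulk tissue, fewer cells of a type and less RNA per cell cannot be told apart. The tRNA genes held 0.192 ± 0.0186% in Western diet postpartum hearts and 0.162 ± 0.00607% in control diet postpartum hearts (SD, n = 3 each). They held 0.170 ± 0.0146% in Western diet nonpregnant hearts and 0.153 ± 0.0134% in control diet nonpregnant hearts, where the libraries overlapped.

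**Figure D2:**
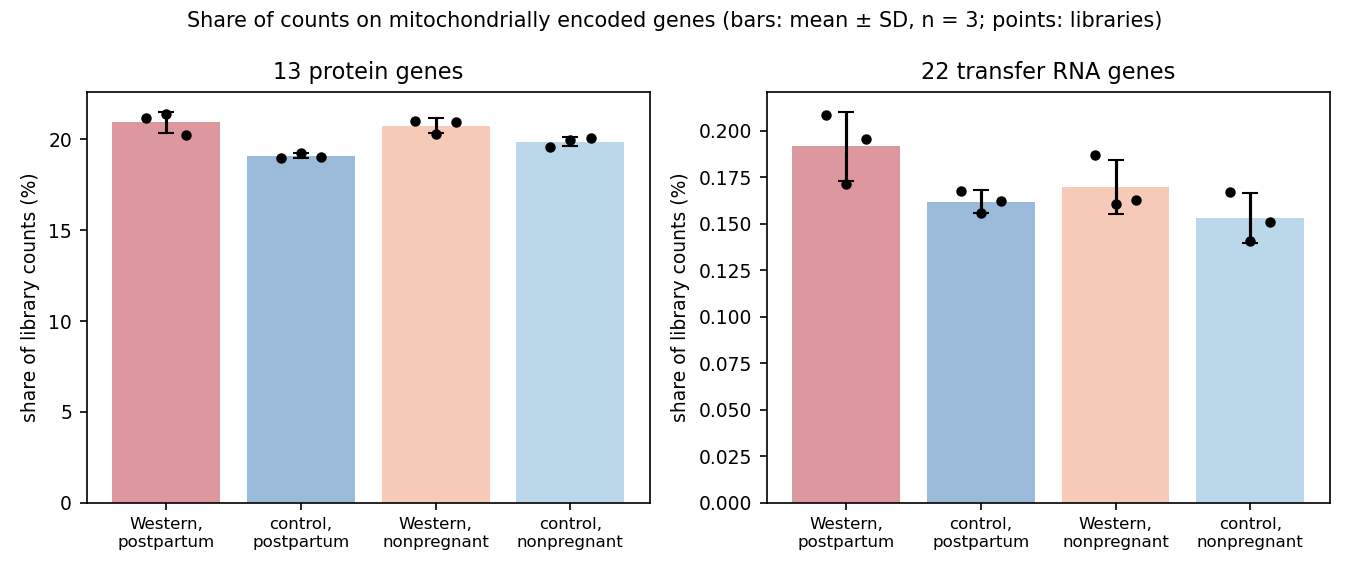
Share of library counts (%) on the 13 protein genes and the 22 tRNA genes in each group. The 3 control diet postpartum libraries have protein gene shares of 19.0% to 19.3%, below the 9 others, and the tRNA shares of the diets overlap in nonpregnant hearts.

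Each library held 22754591 to 29492416 counts. A quality list of 11 nuclear-retained or unpolyadenylated RNAs was also summed. It came to 3178 to 3728 CPM in Western diet postpartum and 3006 to 3343 CPM in control diet postpartum libraries. In nonpregnant libraries it came to 2895 to 3001 CPM on the Western diet and 3295 to 3445 CPM on the control diet. It was apart between the nonpregnant diets and between the states on the Western diet, and its part in the mitochondrial values was not tested. The 10 ventricular cardiomyocyte markers summed to 76201 to 91459 CPM, and the atrial markers Myl7 and Sln were at most 0.194 and 0.123 CPM. Control diet postpartum library 3 stood apart in fat genes. It had 73.1 CPM of the brown fat gene Ucp1, against a highest level of 0.545 CPM in the other 11, 72.6 CPM of Cfd, a factor that fat cells secrete, against at most 1.51 CPM, and 19.6 CPM of the fat hormone Adipoq, against at most 0.543 CPM. Of 9 brown and 9 white adipocyte markers, 3 and 6 were over 10 times their highest level in any other library. The summed lists overlapped other groups, since genes that heart muscle also expresses, such as Cox7a1 and Cox8b, dominate the brown one (1107 to 1175 CPM in control diet postpartum libraries, 1013 to 1194 CPM in the others). Without this library mt-Te kept its diet calls (edgeR adjusted p = 0.0244 postpartum and 0.00904 averaged) and mt-Tv its call for both factors together (edgeR adjusted p = 0.0332), and the other calls given below were lost, with adjusted p of 0.0568 to 0.141. Western diet postpartum library 2 had 130 CPM of mt-Tm (methionine), against 37.1 to 60.6 CPM in the other 11, and it was the lowest of its group for 14 of 20 tRNAs tested.

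Among hearts on day 1 postpartum, the tRNA mt-Te and the message mt-Nd2 were higher on the Western diet than on the control diet. These 2 of 33 tested genes passed the edgeR quasi-likelihood test with Benjamini-Hochberg adjustment over 15476 genes at 0.05. Both were higher, beside 0.646% of all genes called higher, 0.233% called lower and 0.879% in either direction. The tRNA mt-Te had 286, 289 and 297 CPM in Western diet postpartum hearts, against 199, 223 and 207 CPM in control diet postpartum hearts. The groups were far apart relative to their spread. The log2 fold change was 0.47 ± 0.06 (SE) with an adjusted p of 0.00496 in edgeR. The complex I message mt-Nd2 had 19932, 19941 and 18718 CPM in Western diet postpartum hearts, against 15724, 16101 and 15512 CPM in control diet postpartum hearts. Its groups did not overlap either, with a log2 fold change of 0.31 ± 0.06 (SE) and an edgeR adjusted p of 0.0359. The call of mt-Te held in all 12 fits that left out 1 library, with adjusted p between 0.003 and 0.0281. The call of mt-Nd2 held in 4 of them (without Western diet postpartum library 2, Western diet nonpregnant library 1, or control diet nonpregnant library 1 or 3), and the adjusted p without each of the other 8 libraries was 0.0514 to 0.135. With only the 6 libraries of the comparison in the fit it was 0.0697.

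The rest of the protein genes also had positive differences in this comparison and did not pass the edgeR test. DESeq2 called 10 of the 33, beside 3.49% of all genes with an adjusted p in it, and added mt-Co1, mt-Nd4, mt-Nd5, mt-Nd6 and mt-Cytb (adjusted p 0.000829 to 0.0274) and the tRNAs mt-Tf, mt-Ti and mt-Tp. All 13 had a positive log2 fold change, with a median of 0.22, against a median of -0.0006 over all genes tested. For the 7 outside the copied stretch the differences ran between 0.16 and 0.31, and in each of the 7 the lowest Western diet library was above the highest control diet library. That was so for mt-Nd6, with 5820, 6198 and 5368 CPM in Western diet postpartum hearts, against 4355, 4900 and 4817 CPM in control diet postpartum hearts (log2 0.31 ± 0.07 SE, edgeR adjusted p = 0.059). For mt-Nd5 the levels were 17363, 17765 and 17007 CPM on the Western diet, against 13735, 15309 and 14893 CPM on the control diet (log2 0.25 ± 0.06 SE, edgeR adjusted p = 0.0711). For mt-Nd4 they were 14818, 14671 and 14274 CPM on the Western diet, against 12273, 12938 and 11574 CPM on the control diet (log2 0.25 ± 0.06 SE, edgeR adjusted p = 0.0734). For the 6 genes inside the stretch the differences ran between 0.03 and 0.25, and only mt-Atp6 had groups that did not overlap. Of all 33 tested genes, 12 had all Western diet libraries above all control diet libraries and 0 had them below, beside 9.86% and 9.28% of all genes. At an unadjusted p under 0.05 there were 17 of 33, beside 14.6% of all genes. As for markers of the cells a heart holds, the sum over 8 endothelial genes was 950 to 1044 CPM in Western diet postpartum hearts and 910 to 953 CPM in control diet postpartum hearts, and that over 10 ventricular cardiomyocyte genes was 80052 to 81378 CPM and 76956 to 86433 CPM. Each of the following lists was apart between these groups. The 8 fibroblast genes summed to 925 to 1040 CPM on the Western diet and 1070 to 1294 CPM on the control diet. The 6 atrial genes, mostly Nppa, summed to 48.8 to 65.7 CPM and 90.3 to 105 CPM. The 7 lymphocyte genes, all low, summed to 1.80 to 2.01 CPM and 2.25 to 3.25 CPM. Of the white fat list, only Lipe among the 7 genes tested passed, and it rose (log2 0.71 ± 0.13 SE, edgeR adjusted p = 0.0198). On that list Fabp4 was also higher on the Western diet. Adipoq, Plin1, Cfd, Retn, Cidec and Pck1 had lower group means there, and each was highest in control diet postpartum library 3. The part of these lists in the mitochondrial differences was not tested.

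The tRNAs varied more among themselves. In postpartum hearts 15 of the 20 tested had a positive difference between the diets, with a median of 0.30 and a range of -0.35 to 0.95. The largest was mt-Tf (phenylalanine), with 10.3, 4.60 and 9.08 CPM in Western diet postpartum hearts, against 3.75, 4.73 and 3.99 CPM in control diet postpartum hearts. The Western diet libraries disagreed among themselves, as library 2 fell within the control range, and the adjusted edgeR p was 0.0734. Without that library 7 of 33 genes passed in this comparison, beside 3.11% of all genes in the same fit, among them mt-Tf (log2 1.22, adjusted p = 0.00158), mt-Ti (isoleucine, 0.67, adjusted p = 0.00274) and mt-Ty (tyrosine, 0.63, adjusted p = 0.0121), all in edgeR. Other short RNAs (snRNA, snoRNA and scaRNA genes together) summed to 45.2 to 48.7 CPM in Western diet postpartum hearts and 42.1 to 45.1 CPM in control diet postpartum hearts (of unscaled totals), and their part in the tRNA values was not tested.

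Among nonpregnant hearts, 0 of 33 genes passed between the diets in edgeR, where 0.0582% of all genes did. At an unadjusted p under 0.05 there were 2 of 33, beside 9.58% of all genes, and DESeq2 called 0 as well, beside 0.943% of all genes with an adjusted p in it. The tRNA mt-Te had 296, 316 and 298 CPM in Western diet nonpregnant hearts, against 257, 261 and 287 CPM in control diet nonpregnant hearts, a log2 difference of 0.18 ± 0.06 (SE) with an edgeR adjusted p of 0.372. Its groups did not overlap, nor did those of mt-Nd2, mt-Nd4, mt-Nd6 and mt-Ti, and the Western diet was the higher in all 5. That is 5 of 33, beside 6.92% of all genes with the Western diet higher. The median over the 13 protein genes was 0.04. Ventricular cardiomyocyte markers (10 genes) summed to 76201 to 79694 CPM in Western diet nonpregnant hearts, against 81637 to 91459 CPM in control diet nonpregnant hearts. Endothelial markers (8 genes) summed to 924 to 992 CPM, against 839 to 893 CPM, and 6 atrial markers to 34.1 to 59.2 CPM, against 65.6 to 91.3 CPM. Each of these lists was apart between the diets, and their part in the mitochondrial differences was not tested.

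Averaged over both states, the Western diet over the control diet, 3 genes rose and 0 fell in edgeR, beside 0.989% of all genes called higher and 0.394% called lower (1.38% in all). They were mt-Te (log2 0.32 ± 0.04 SE, edgeR adjusted p = 0.00321), mt-Nd4 (0.20 ± 0.04, adjusted p = 0.0392) and mt-Nd2 (0.20 ± 0.04, adjusted p = 0.0462). In each of the 3 the diets did not overlap in either state. The call of mt-Te held without each of the 12 libraries in turn (adjusted p 0.00245 to 0.0136). The call of mt-Nd4 held without Western diet postpartum library 2, control diet postpartum library 2, or control diet nonpregnant library 1 or 3, and its adjusted p was 0.0636 to 0.0994 without each of the other 8. The call of mt-Nd2 held without Western diet postpartum library 2 or control diet nonpregnant library 1 or 3, and its adjusted p was 0.0549 to 0.113 without each of the other 9. All 13 protein genes and all 8 minus-strand tRNAs had positive averages, with medians of 0.10 and 0.28, and of the 12 tested plus-strand tRNAs 8 did. Among cell type markers in this comparison, 3 of 8 endothelial genes rose (Pecam1 by 0.21, Tie1 by 0.22 and Cldn5 by 0.48 on the log2 scale), as did 2 of 7 tested white fat genes (Lipe by 0.55 and Fabp4 by 0.38), and the natriuretic peptide gene Nppa fell (log2 -0.91). Their part in the mitochondrial differences was not tested.

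Pregnancy was read by comparing hearts on day 1 postpartum with nonpregnant hearts. On the control diet, mt-Te fell and was the only one of 33 genes to pass, beside 0.0323% of all genes called lower and 0.239% called in either direction in edgeR. It had 199, 223 and 207 CPM in control diet postpartum hearts, against 257, 261 and 287 CPM in control diet nonpregnant hearts. The groups did not overlap (log2 -0.35 ± 0.06 SE, edgeR adjusted p = 0.037). This comparison shares its control diet postpartum libraries with the diet comparison above. The call held without Western diet postpartum library 2, control diet postpartum library 2, Western diet nonpregnant library 1 or control diet nonpregnant library 1, and the adjusted p was 0.0501 to 0.188 without each of the other 8. With only the 6 libraries of the comparison in the fit it was 0.149.

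The control diet messages mt-Nd6 and mt-Nd5 also had groups that did not overlap and were lower postpartum, without passing the test. For mt-Nd6 the levels were 4355, 4900 and 4817 CPM in control diet postpartum hearts, against 5574, 6014 and 6130 CPM in control diet nonpregnant hearts (log2 -0.33 ± 0.07 SE, edgeR adjusted p = 0.0792). For mt-Nd5 they were 13735, 15309 and 14893 CPM postpartum, against 17362, 17682 and 18208 CPM nonpregnant (log2 -0.28 ± 0.06 SE, edgeR adjusted p = 0.0883). All 7 protein genes outside the copied stretch had negative differences, between -0.33 and -0.05. Of the 33 genes, 7 had higher and 5 had lower groups without overlap, beside 8.12% and 8.96% of all genes. The 7 that were higher were mt-Nd3 and 6 tRNAs (mt-Th, mt-Tl1, mt-Tl2, mt-Ts1, mt-Ts2 and mt-Tv). Summed fibroblast markers (8 genes) were 1070 to 1294 CPM in control diet postpartum hearts, against 705 to 953 CPM in control diet nonpregnant hearts, and 8 macrophage markers summed to 259 to 294 CPM, against 187 to 233 CPM. The 8 endothelial markers were apart as well, with sums of 910 to 953 CPM postpartum, against 839 to 893 CPM nonpregnant. Ventricular cardiomyocyte markers summed to 76956 to 86433 CPM postpartum, against 81637 to 91459 CPM nonpregnant, and the part of these differences in the mitochondrial values was not tested.

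On the Western diet, 0 of 33 genes passed between postpartum and nonpregnant hearts in edgeR, where 0.588% of all genes did. At an unadjusted p under 0.05 there were 9 of 33, beside 14.7% of all genes. DESeq2 called 1, beside 2.97% of all genes with an adjusted p in it. The tRNA mt-Te had 286, 289 and 297 CPM in Western diet postpartum hearts, against 296, 316 and 298 CPM in Western diet nonpregnant hearts, which overlapped. Of the 20 tested tRNAs 19 had a positive difference, with a median of 0.26, while the 7 protein genes outside the stretch ran between -0.12 and 0.15. Without Western diet postpartum library 2, 3 of 33 genes passed, beside 3.0% of all genes in the same fit, namely the tRNAs mt-Tf (log2 0.91), mt-Tv (0.80) and mt-Tl1 (0.54), with edgeR adjusted p of 0.00806, 0.00708 and 0.00708. Ventricular cardiomyocyte markers summed to 80052 to 81378 CPM in Western diet postpartum hearts, against 76201 to 79694 CPM in Western diet nonpregnant hearts. The 7 lymphocyte markers, all low, summed to 1.80 to 2.01 CPM, against 3.10 to 4.85 CPM. The part of these differences in the mitochondrial values was not tested.

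Averaged over both diets, postpartum over nonpregnant, 3 genes rose and 2 fell in edgeR, beside 1.03% of all genes called higher and 0.75% called lower (1.78% in all). The 3 that rose were plus-strand tRNAs of low level, and the 2 that fell were neighbours on the minus strand. For mt-Tv the levels were 25.7, 16.8 and 22.7 CPM in Western diet postpartum hearts, against 16.3, 11.9 and 13.4 CPM in Western diet nonpregnant hearts. They were 14.8, 17.4 and 17.8 CPM in control diet postpartum hearts, against 13.9, 11.7 and 14.4 CPM in control diet nonpregnant hearts. On each diet all postpartum libraries were above all nonpregnant ones, and the average difference was 0.49 ± 0.11 (SE, edgeR adjusted p = 0.036).

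The serine tRNA mt-Ts2 had 11.5, 8.32 and 8.73 CPM in Western diet postpartum hearts, against 7.60, 6.48 and 7.57 CPM in Western diet nonpregnant hearts. It had 16.2, 9.30 and 10.5 CPM in control diet postpartum hearts, against 7.03, 6.85 and 7.67 CPM in control diet nonpregnant hearts. Its 6 postpartum libraries were above its 6 nonpregnant ones, with an average log2 difference of 0.57 ± 0.13 (SE, edgeR adjusted p = 0.0446). The neighbouring leucine tRNA mt-Tl2 had 35.5, 24.2 and 23.4 CPM in Western diet postpartum hearts, against 21.3, 19.0 and 22.8 CPM in Western diet nonpregnant hearts. It had 38.8, 24.8 and 32.0 CPM in control diet postpartum hearts, against 17.96, 22.2 and 20.1 CPM in control diet nonpregnant hearts. Here too no postpartum library was as low as any nonpregnant one, with an average log2 difference of 0.53 ± 0.12 (SE, edgeR adjusted p = 0.0413). Control diet postpartum library 1 was the highest for both, and without it the differences were 0.44 (adjusted p = 0.0524) and 0.45 (adjusted p = 0.0831).

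The 2 that fell were mt-Nd6 (log2 -0.23 ± 0.05 SE, edgeR adjusted p = 0.0362) and mt-Te (-0.21 ± 0.04, adjusted p = 0.0312). On the Western diet the postpartum and nonpregnant libraries of both overlapped, with 5820, 6198 and 5368 CPM of mt-Nd6 in Western diet postpartum hearts, against 6166, 6259 and 6509 CPM in Western diet nonpregnant hearts. All 5 calls were lost in most of the 12 fits that left out 1 library. That of mt-Tv held without control diet postpartum library 1, Western diet postpartum library 2, or library 1 of either nonpregnant group. Those of mt-Nd6 and mt-Te held without library 2 of either postpartum group or control diet nonpregnant library 1. That of mt-Tl2 held without Western diet postpartum library 2 or 3 or control diet postpartum library 2, and that of mt-Ts2 without library 2 of either postpartum group. The 5 calls held without Western diet postpartum library 2, and the adjusted p over the 12 fits reached 0.0959 for mt-Tv, 0.122 for mt-Ts2, 0.102 for mt-Tl2, 0.0959 for mt-Nd6 and 0.0903 for mt-Te. All 12 tested plus-strand tRNAs had a positive average, with a median of 0.32, while the 7 protein genes outside the stretch ran between -0.23 and 0.03. Among cell type markers in this comparison, 2 of 8 fibroblast genes rose (Col1a1 by 0.48 and Col1a2 by 0.43 on the log2 scale), as did 3 of 8 macrophage genes (Cd68 by 0.54, C1qa by 0.32 and C1qb by 0.29), and 1 of 10 ventricular cardiomyocyte genes, Myl2, fell (log2 -0.24). Their part in the mitochondrial differences was not tested.

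**Figure D3:**
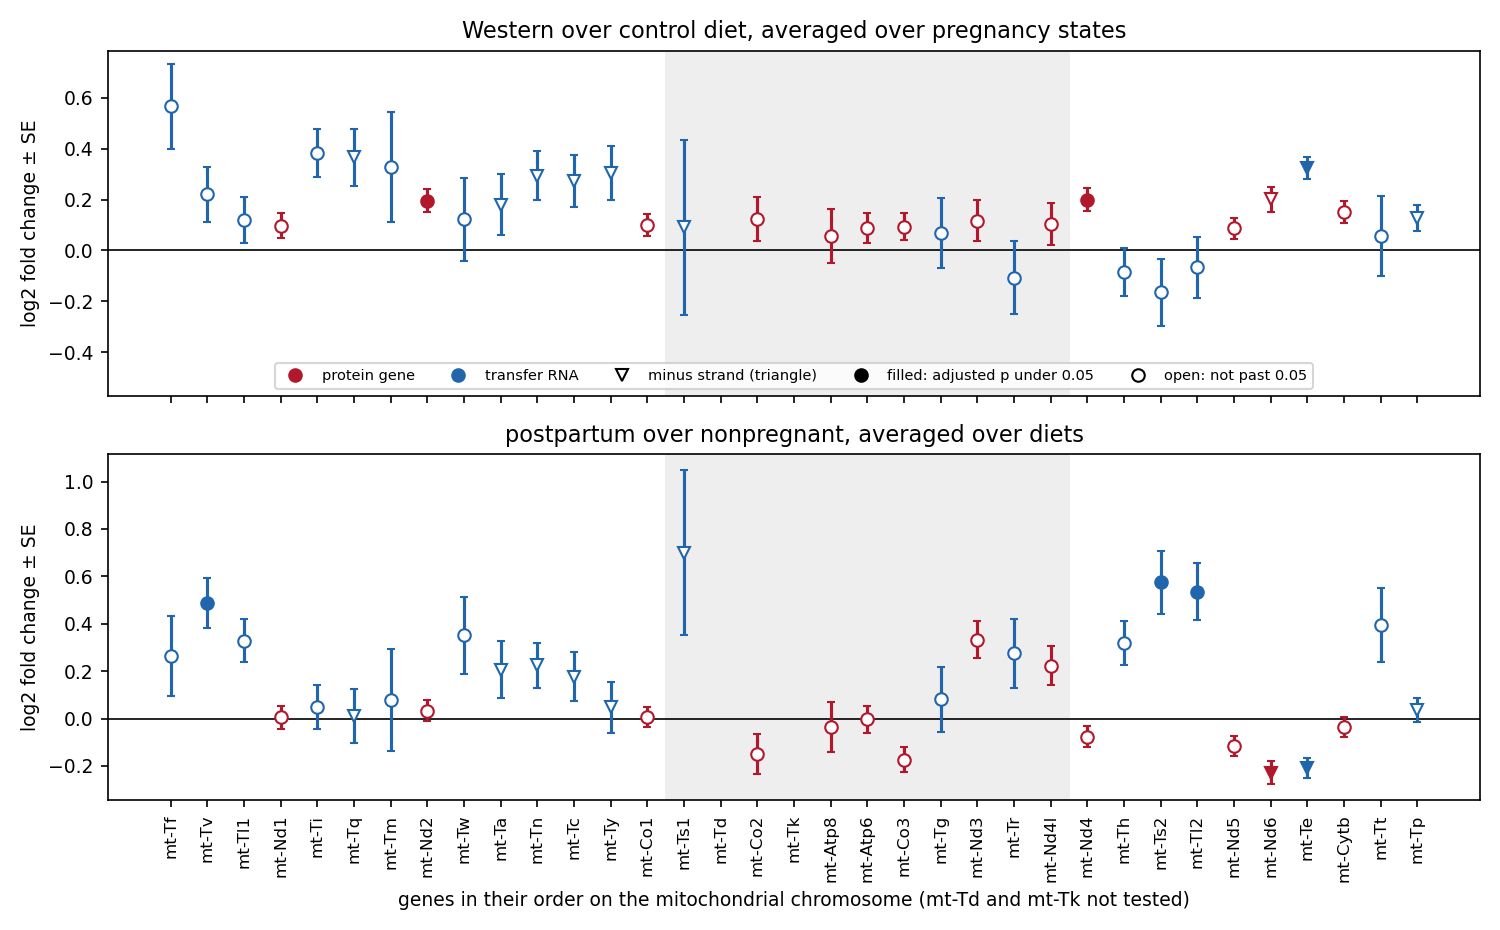
Log2 fold change with its SE for the 33 tested genes in chromosome order, Western over control diet above and postpartum over nonpregnant below, each averaged over the other factor. Filled points passed an edgeR adjusted p of 0.05; the averages are positive for all 13 protein genes in the upper panel, and in the lower one for all 12 plus-strand tRNAs and 5 of the 13 protein genes.

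With both factors together, Western diet postpartum hearts over control diet nonpregnant hearts, mt-Tv rose and was the only gene of 33 to pass in edgeR, beside 1.45% of all genes called higher and 2.62% in either direction. It had 25.7, 16.8 and 22.7 CPM in Western diet postpartum hearts, against 13.9, 11.7 and 14.4 CPM in control diet nonpregnant hearts, with no overlap (log2 0.71 ± 0.15 SE, edgeR adjusted p = 0.028). The call was lost without Western diet postpartum library 1 (adjusted p = 0.126) or 3 (0.091) and without control diet nonpregnant library 2 (0.113) or 3 (0.0614), and with only the 6 libraries compared in the fit (0.0644), where mt-Nd3 passed instead. All 20 tested tRNAs had a positive difference, with a median of 0.42 and a range of 0.11 to 0.83. The 13 protein genes had a median of 0.10, and the nearest to passing was mt-Nd3 (log2 0.45 ± 0.11 SE, edgeR adjusted p = 0.0507). The tRNA mt-Te, lower in control diet postpartum hearts alone, differed by 0.11 ± 0.06 (SE) here, with an edgeR adjusted p of 0.36. Among cell type markers in this comparison, 2 of 8 endothelial genes rose, Pecam1 (log2 0.34) and Cldn5 (0.75). So did 1 of 8 fibroblast genes, Pdgfra (0.28), 1 of 8 macrophage genes, C1qb (0.38), and 1 of 7 tested white fat genes, Fabp4 (0.46). Of 10 ventricular cardiomyocyte genes 1 fell, Pln (-0.27). On the white fat list Lipe and Cfd also had higher group means, while Adipoq, Plin1, Retn, Cidec and Pck1 had lower ones. The part of these markers in the mitochondrial differences was not tested.

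**Figure D4:**
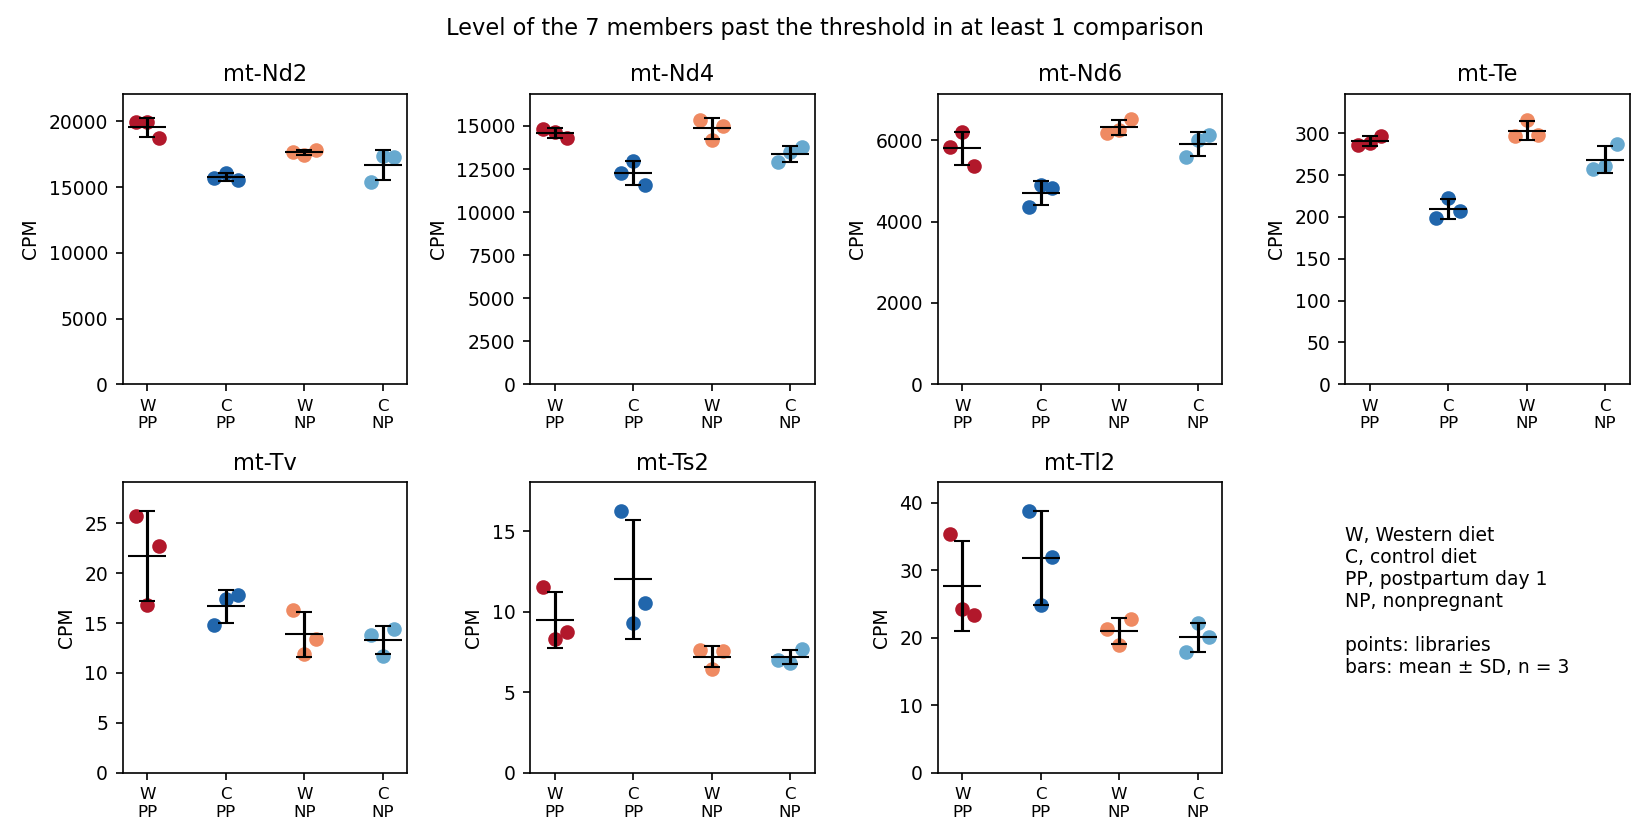
Level (CPM) of the 7 genes that passed in at least 1 comparison, in each library, with the mean and SD of each group (n = 3). For mt-Te the 3 control diet postpartum libraries sit at 199 to 223 CPM, below the 9 others, and for mt-Tv, mt-Ts2 and mt-Tl2 the postpartum libraries sit above the nonpregnant ones on each diet.

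Whether the diet difference itself depended on pregnancy was tested as an interaction, and 0 of 33 genes passed in edgeR, as did 0.0% of all genes. At an unadjusted p under 0.05 there were 5 of 33, beside 8.98% of all genes. DESeq2 called 1, mt-Nd5 (adjusted p = 0.0166), beside 1.06% of the 4074 genes with an adjusted p in it. For mt-Te the diet difference was larger postpartum than in nonpregnant hearts by 0.29 ± 0.09 on the log2 scale (SE, edgeR adjusted p = 0.401). For mt-Nd5 it was larger by 0.32 ± 0.09 (edgeR adjusted p = 0.364). All 7 protein genes outside the copied stretch had positive interactions, between 0.10 and 0.32 on the log2 scale, and none passed in edgeR.

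Since mt-Te and mt-Nd6 lie side by side on the minus strand, the count of mt-Te relative to that of mt-Nd6 was compared as a description, in counts of mt-Te per 1000 of mt-Nd6. The ratio was 49.1, 46.6 and 55.3 in Western diet postpartum hearts and 45.8, 45.5 and 43.0 in control diet postpartum hearts. It was 48.1, 50.5 and 45.7 in Western diet nonpregnant hearts and 46.1, 43.4 and 46.8 in control diet nonpregnant hearts. The postpartum diets did not overlap in this ratio, and the nonpregnant diets did. Set against mt-Cytb on the other strand, mt-Nd6 had 15.1, 16.0 and 14.0 counts per 100 of mt-Cytb in Western diet postpartum hearts and 13.05, 14.1 and 15.5 in control diet postpartum hearts, against 16.1 to 17.2 in Western diet nonpregnant hearts and 16.4 to 16.8 in control diet nonpregnant hearts. All 6 postpartum libraries were thus below all 6 nonpregnant ones in the share of mt-Nd6.

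The respiratory complexes are built from both genomes, so 75 nuclear subunits of complexes I, III, IV and V were set beside the mitochondrial ones. Between the diets postpartum, 0 of 75 passed in edgeR, beside 0.879% of all genes. The 75 had a median of 0.06 with 69 positive, while the 7 protein genes outside the stretch had a median of 0.25. In control diet postpartum over control diet nonpregnant hearts the 75 had a median of 0.03, while the 7 had one of -0.11, and the difference between the 2 sets was not tested. Summed over the 7 genes and over the 75, there were 4.42, 4.69 and 4.31 mitochondrial per nuclear CPM in Western diet postpartum hearts and 4.06, 3.97 and 4.07 in control diet postpartum hearts. There were 4.47, 4.37 and 4.74 in Western diet nonpregnant hearts and 4.47, 4.41 and 4.25 in control diet nonpregnant hearts. The 3 control diet postpartum libraries had the lowest ratios of the 12. Of the 75 nuclear subunits, 3 rose in Western diet postpartum over control diet nonpregnant hearts, beside 1.45% of all genes called higher. They were Ndufa3 (0.27 ± 0.07 SE, edgeR adjusted p = 0.0499) and Ndufa7 (0.29 ± 0.07, 0.0437) of complex I and Cox8a (0.29 ± 0.07, 0.0467) of complex IV. Averaged over the diets, Cox8a also rose postpartum (0.22 ± 0.05 SE, edgeR adjusted p = 0.044), beside 1.03% of all genes called higher.

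**Figure D5:**
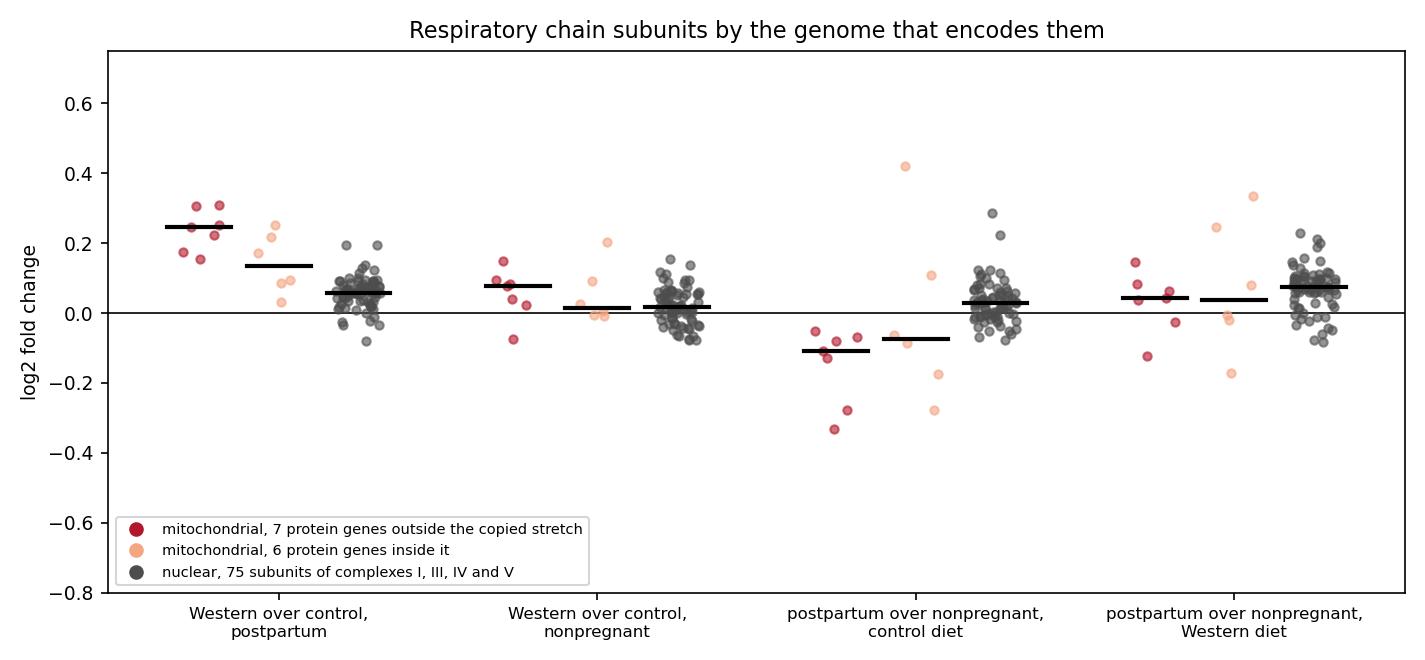
Log2 fold change of the 7 mitochondrial protein genes outside the copied stretch, the 6 inside it and 75 nuclear subunits in 4 comparisons, with a bar at each median. The medians of the 7 and of the nuclear subunits are 0.25 and 0.06 between the diets postpartum, and -0.11 and 0.03 postpartum over nonpregnant on the control diet.

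The nuclear genes that make and process mitochondrial RNA passed in none of the 8 edgeR comparisons, beside 0.0% to 2.62% of all genes. This held for 19 genes of mitochondrial DNA transcription and replication, 24 of RNA processing, stability and decay, 17 of tRNA maturation, 19 aminoacyl-tRNA synthetases and 14 regulators of mitochondrial biogenesis. Their medians in Western over control diet postpartum hearts were -0.0044, 0.0037, 0.012, -0.021 and -0.080 on the log2 scale. Prorp, chosen for the RNA processing list, was not found under that symbol, so the result does not cover it. The 7 genes followed by name were Tfam, which packages mitochondrial DNA, the RNA polymerase Polrmt, its factors Tfb2m and Tefm, the RNA-stabilising pair Lrpprc and Slirp, and the coactivator Ppargc1a. In that comparison their differences ran between -0.08 and 0.23, and the closest to passing was Tfb2m (log2 0.23 ± 0.06 SE, edgeR adjusted p = 0.107).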

How the data were processed

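Heart RNA was sequenced from 12 NEBNext Ultra RNA libraries, per the labels' protocols. The deposited files hold whole-number counts per gene, made by the authors, and the submitters' processing notes name Subread 1.5.2 with featureCounts, STAR 2.5.2b and FastQC, and the build GRCm38. The sources used here do not give the annotation release, the strand setting or the treatment of reads that match several places. Coordinates of all 35 genes equal those of GENCODE M21, from which sequences and nuclear copies were taken, with copies sought by shared windows of 50 bases. Counts were tested with edgeR 4.0.16 (R 4.3.3): TMM scaling, filterByExpr by group, 1 quasi-likelihood fit of all 12 libraries with a mean per group, two-sided tests, Benjamini-Hochberg adjustment over 15476 genes and a threshold of 0.05. The common coefficient of variation was 9.62%. The fits were tested on simulated data, with a limit on false calls set for edgeR and limma-voom and none set for DESeq2. All mitochondrial genes were described whether or not they passed; of other genes, the called members of each function list and 7 chosen genes were named. The members and lists were chosen with earlier results of these data known. Alternatives were other scalings, filters, DESeq2, limma-voom, the robust option, fits of only the groups compared and leaving out each library.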

Additional observations from a re-analysis of the deposited data

How the results depend on the processing

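Called values kept their sign under every alternative run. The counts of mitochondrial genes called, in the order Western over control diet postpartum, the same nonpregnant, postpartum over nonpregnant on the control diet, the same on the Western diet, both factors together, diet averaged, pregnancy averaged and interaction, were 2, 0, 1, 0, 1, 3, 5 and 0. With DESeq2 they were 10, 0, 6, 1, 8, 8, 7 and 1, and with no filter on low counts 16, 2, 8, 9, 15, 13, 12 and 2. In the same order, the shares of all genes called were 0.879%, 0.0582%, 0.239%, 0.588%, 2.62%, 1.38%, 1.78% and 0.0%, with DESeq2 3.49%, 0.943%, 1.24%, 2.97%, 5.46%, 3.7%, 4.31% and 1.06% of genes with an adjusted p, and with no filter 3.52%, 1.53%, 2.5%, 3.13%, 4.42%, 3.46%, 4.24% and 1.7%. With only the groups compared in the fit, 1, 0, 0, 0 and 1 genes were called in the 5 pairwise comparisons, with mt-Nd3 in place of mt-Tv in the last. For both factors together, DESeq2 size factors gave 2, library totals alone 2, and a filter of 1 CPM in 3 libraries 3. Leaving out 1 library at a time gave 1 to 7, 0 to 0, 0 to 3, 0 to 3, 0 to 8, 1 to 7, 0 to 7 and 0 to 0 genes, and the highest counts of 7, 3, 8, 7 and 7 came without Western diet postpartum library 2. Scaling moved the median of all genes by at most 0.094 on the log2 scale, which is not small beside the mitochondrial differences. With library totals alone, the postpartum diet difference of mt-Nd2 was 0.23 in place of 0.31, and that of mt-Te 0.39 in place of 0.47. The median over the mitochondrial genes in that comparison was 0.15 with library totals alone and 0.22 with DESeq2 size factors. For the interaction these medians were 0.056 and 0.147. Of 5408 values of single genes under the alternatives, 5187 stayed on the same side of the threshold, 87 were no longer past it and 134 were newly past it. All 87 losses fell on the 12 pairs of gene and comparison called in the main fit. The other values were not called and had no call to lose. The averaged call of mt-Ts2 was lost in limma-voom (adjusted p = 0.0632) and that of mt-Tl2 with the robust option (adjusted p = 0.0753), and the postpartum diet call of mt-Nd2 with only the groups compared (adjusted p = 0.0697). No paired analysis was possible because the labels give groups no shared replicate numbers. Without the tRNA genes, the mitochondrial share of counts in control diet postpartum hearts was 19.1% in place of 19.3%. Genes with few counts, such as mt-Ts1 with 1 to 17 per library, give wide errors, and the depth cannot show small differences in them.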
